A study of Homo sapiens with 2 samples.

Results

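Peaks in short coding exons made up 1924 of the 20499 peaks in a NUDT21 eCLIP peak list, 9.39% of the list (exact 95% interval 8.99% to 9.79%). They were chosen by position alone. The midpoint of the peak lay in the coding sequence (CDS) of a protein-coding gene other than a readthrough gene, in no 5'UTR or 3'UTR of any coding transcript, and the longest annotated exon over that midpoint was shorter than 300 nt (GENCODE 44, hg38). The peaks fell in 1000 genes and 1902 exons, and 22 exons held 2 of them. No peak lay in coding genes of both strands, and 1 lay in 2 genes.

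The study used J-Gamma1, an established human cell line of T-ALL (leukemia of T-cell precursors), with 1 library made with the NUDT21 antibody and 1 input library. The cells were irradiated with UV-C light and treated with RNase I, and no genetic change or drug was named in the labels. No file of the input was used here. With 1 antibody library there was no replicate, so no test was made; the intervals below cover counting error only, and the depth of the library is unknown. The list contained peaks in exons of 3 of 12 T-cell markers (CD3E, CD247 and PTPRC) and 4 of 7 T-ALL markers (NOTCH1, MYB, GATA3 and RUNX1), against 0 of 5 B-cell, 0 of 5 myeloid and 0 of 4 erythroid markers. Of 14150 protein-coding genes with a short coding exon, 3428 had an exonic peak of some kind, a share near that of the T-cell markers. With lists this small, the counts do not identify the cells.

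NUDT21 is the small subunit of cleavage factor I, a complex that binds UGUA motifs upstream of polyadenylation sites in the 3' part of pre-mRNAs and thereby influences which site is used. Its partners are CPSF6 or CPSF7, which carry domains rich in arginine and serine like those of splicing factors. A coding exon is joined to its neighbours at the 3' splice site before it and the 5' splice site, usually an intronic GU, after it; purine-rich words such as GAAGAA within exons are known as splicing enhancers. Reads of a mature mRNA run from exon to exon, whereas reads of a pre-mRNA run on into the intron.

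Short sequences show what the peaks covered, each of 30 bases on the gene strand, from 5' to 3', in hg38. The first set crosses the exon's 3' edge in the 5 peaks of highest fold enrichment that ran at least 15 nt past that edge; capitals mark the last 15 exon bases and lower case the first 15 intron bases. This set was chosen after the values were seen.

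ANP32B (chr9:97998664-97998693, plus strand): ACCUUGGAACCUUUGguaaguaacugagaa
SRRM1 (chr1:24655115-24655144, plus strand): GAACUUCAGGUAAAGguaaaaaucaaacac
YBX1 (chr1:42701032-42701061, plus strand): UCUACCAUCAUCCGGguaagcaagcuugga
METAP2 (chr12:95504147-95504176, plus strand): GGAAGACAUAUCAAGguauguucuuuuaaa
METAP2 (chr12:95494203-95494232, plus strand): AAUGAUAGAAAUCUGguaaaaggaauacuu

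Each of these 5 peaks covered the GU that begins the intron, which follows from choosing peaks that ran at least 15 nt past the edge. In YBX1 the capitals are 3'UTR bases, after the stop codon of the canonical transcript. The second set shows the 5 peaks with the longest uninterrupted GAA repeat of at least GAAGAA, with the repeat in capitals.

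HTATSF1 (chrX:136502882-136502911, plus strand): ugccucaaaGAAGAAGAAGAAgugcaaaga
SRRM2 (chr16:2758509-2758538, plus strand): aaagcaGAAGAAGAAGAAaaagaagaaaga
BRD3 (chr9:134040163-134040192, minus strand): ggagaaggaGAAGAAGAAGAAggacaagga
FNBP1 (chr9:129979313-129979342, minus strand): acucgaaggagGAAGAAGAAuacaaguaug
PUM3 (chr9:2834108-2834137, minus strand): gacuucaaaaaGAAGAAGAAagaacugaag

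The third set shows the 5 UGUA-holding peaks of highest fold enrichment, with a UGUA in capitals.

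KIF5B (chr10:32037517-32037546, minus strand): aauccaacagacaUGUAgcaguuacaagua
SUPT16H (chr14:21362832-21362861, minus strand): agaaauaugagacUGUAauaaugcccgugu
DDX18 (chr2:117817481-117817510, plus strand): agaUGUAucugaagaaacaaugggaaguag
RTF1 (chr15:41477478-41477507, plus strand): gggaguggaacauUGUAgagucugagaagg
TPX2 (chr20:31777625-31777654, plus strand): auccuucaucuccUGUAaguugauggacua

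Peaks in short coding exons were narrow and had a higher median fold enrichment than the whole list. Their median length was 77 nt (quartiles 58 and 113 nt), and 10.3% of them had the shortest length among them, 48 nt. The deposited fold enrichment, the ratio of a peak to its local background, had a median of 2.45 (95% interval 2.41 to 2.46) with quartiles of 2.09 and 2.78 and a maximum of 6.13. The same median was 2.27 for 2431 peaks in coding exons of 300 nt or more, 2.37 for 1850 peaks in both CDS and the 3'UTR of another transcript, and 1.61 over all peaks. The stated local windows of the peak calling were 1000 and 10000 nt, wider than any of the short exons. Their part in these differences was not tested.

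The deposited Score came in whole steps of 0.228, and a peak of 5 or more steps was taken as tall. Of the peaks in short coding exons, 1643 (85.4%, 83.7% to 86.9%) reached 5 steps, against a background of 42.3% over the whole list. The share was 78.3% (76.6% to 79.9%) in the longer coding exons and 85.2% (83.5% to 86.8%) in the CDS and 3'UTR set, so the short exons stood above the first and level with the second within counting error. Read the other way, peaks in short coding exons were 1.41% of all peaks of 1 step, 3.89% of those of 2 to 4 steps, 15.97% at 5 to 8 steps, 23.7% at 9 to 16 steps and 19.2% (15.1% to 23.9%) at 17 or more steps. The deposited FDR was 1 for 1890 of the 1924 (98.2%) and under 0.05 for 4, beside a background of 0.0927% of the list. The methods state a q-value threshold that most of these values do not meet, so what the FDR column stands for is not settled, and an FDR is given here as deposited.

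**Figure D1:**
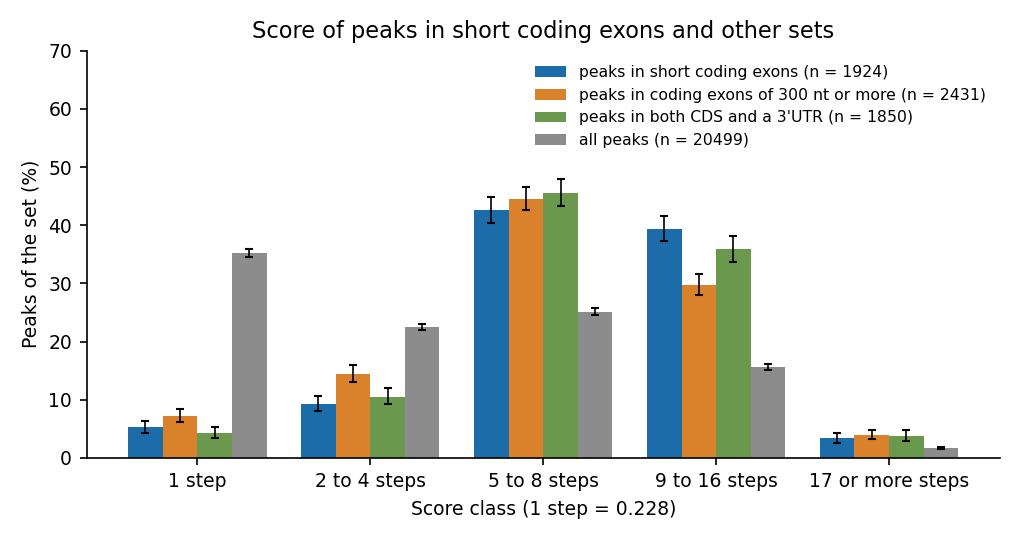
Share of peaks (%, vertical axis) in 5 Score classes (horizontal axis) for peaks in short coding exons, peaks in coding exons of 300 nt or more, peaks in both CDS and a 3'UTR, and all peaks. Bars are shares and error bars exact 95% intervals for counting error; peaks of 1 step were 5.30% of those in short coding exons and 35.2% of all peaks.

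The 4 peaks with an FDR under 0.05 lay in SRRM1, ANP32B, YBX1 and METAP2. SRRM1 encodes a splicing coactivator with arginine and serine repeats, ANP32B an acidic histone chaperone, YBX1 an mRNA-packaging cold shock protein, and METAP2 a methionine aminopeptidase. The ANP32B peak (chr9:97998621-97998717, coding exon 3 of 7) had the highest fold enrichment among these peaks, 6.13 at 29 steps (FDR 0.0214). The SRRM1 peak (chr1:24654887-24655157, coding exon 9 of 17) reached 5.69 at 23 steps (FDR 0.00633). Both the YBX1 peak (chr1:42700868-42701085, coding exon 7 of 7) and the METAP2 peak (chr12:95504092-95504189, coding exon 8 of 11) had 5.45 at 23 steps (FDR 0.0296). The YBX1 midpoint was at nt 936 of a CDS of 975 nt. That peak therefore ran past the stop codon into 3'UTR sequence of the canonical transcript. All 4 ran past the 3' edge of their exon, by 39 nt in ANP32B and YBX1 and by 28 nt in SRRM1 and METAP2.

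The rest of the 10 peaks of highest fold enrichment had a deposited FDR above 0.05. They were a second METAP2 peak at 5.42, a RAD21 peak at 4.84, a BAZ1B peak at 4.65, a second SRRM1 peak at 4.59, and peaks in HMGB1 and NUCB2 at 4.37 each. RAD21 is a subunit of the cohesin ring, BAZ1B a subunit of a chromatin remodelling complex, HMGB1 an abundant DNA-bending chromatin protein and NUCB2 a calcium-binding protein. The HMGB1 and NUCB2 peaks had 34 steps, the highest Score among the 1924. Of these 10 peaks, those in RAD21 and HMGB1 and the second one in SRRM1 lay wholly inside their exon, and the 7 others ran past its 3' edge.

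Tall peaks lay towards the 3' side of the exon and ran past that edge. The exons had a median length of 158 nt (quartiles 122 and 198 nt), and a peak covered a median of 47.5% of its exon. Of the 1643 tall peaks, 807 (49.1%, 46.7% to 51.6%) ran past the 3' edge, into the sequence of the following intron, and 45 (2.74%, 2.00% to 3.65%) ran past the 5' edge. The pattern was alike on both genomic strands, with 390 of 786 tall peaks past the 3' edge in plus-strand genes and 417 of 857 in minus-strand genes. Since the list gives no strand, the edges were named from the strand of the gene. Peaks of 4 steps or fewer did not show the difference: of 281, 134 (47.7%, 41.7% to 53.7%) ran past the 3' edge and 149 (53.0%, 47.0% to 59.0%) past the 5' edge.

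The length of the overhang is limited by the rule, which places the midpoint in the exon and so caps the overhang at 0.5 of the peak length; the cap is the same at both edges. Among the tall peaks past the 3' edge the median overhang was 18 nt (quartiles 10 and 26 nt) at a median peak length of 79 nt, and 787 of the 807 ended within 47 nt of the edge. This limit of 47 nt lies just under the shortest peak length, 48 nt. For 518 of the 807 the rule allowed no more than that, and of the 289 longer peaks 269 ended within it. The low peaks past this edge had a median overhang of 67.5 nt at a median length of 229 nt, so the difference in overhang goes with their length and is not read as a result. On the other side, tall peaks began a median of 50 nt inside the exon (quartiles 31 and 85 nt), and 35 of 1643 began in the first 10 nt of it. The midpoint of all 1924 peaks lay at a median of 0.669 of the exon (0.653 to 0.688), counted from 0 at the 5' edge to 1 at the 3' edge, and at 0.689 for tall and 0.478 for low peaks. Of tall peaks, 53.5% had their midpoint in the last of 3 equal parts of the exon and 7.73% in the first.

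**Figure D2:**
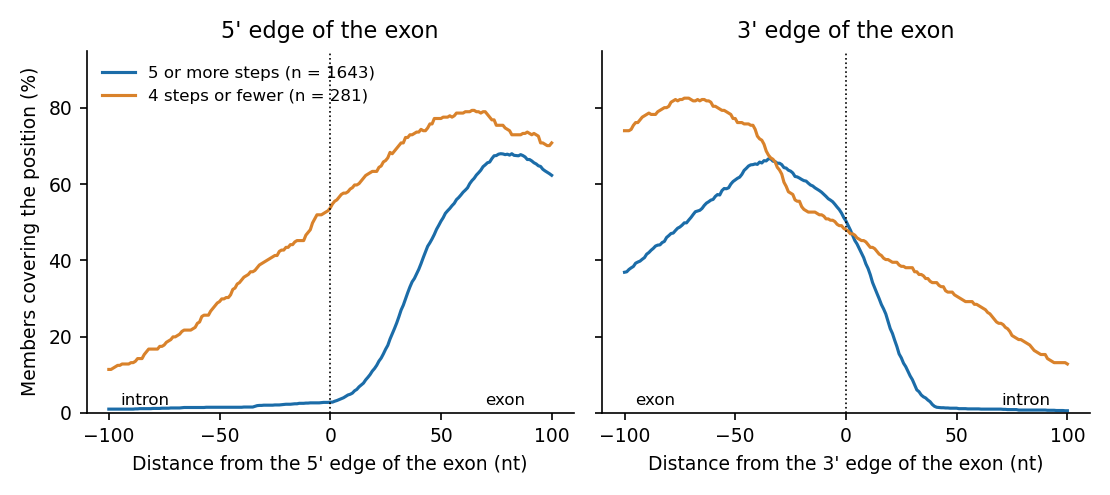
Share of peaks in short coding exons that covered each position (%, vertical axis) by distance from the 5' edge (left) and the 3' edge (right) of the exon (nt, horizontal axis, with the intron at negative values on the left and positive values on the right). Lines are 1643 peaks of 5 or more steps and 281 of 4 steps or fewer. Coverage by tall peaks is near 0 before the 5' edge and falls to near 0 by 47 nt past the 3' edge. The rule caps the overhang at 0.5 of the peak length at both edges. Of 289 tall peaks past the 3' edge that this cap left free to run beyond 47 nt, 269 ended within it.

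The shorter the exon, the more often a peak ran past its 3' edge, and the less room a peak had to lie inside it. Exons under 80 nt had a median length of 70 nt against 63.5 nt for their peaks, and 3 of these 86 peaks lay wholly inside. Past that edge but not the 5' edge were 76.7% of the 86 peaks in exons under 80 nt, 69.2% of the 351 from 80 nt to under 120 nt, 47.1% of the 548 from there to under 160 nt, 33.7% of the 469 from there to under 200 nt and 27.9% of the 470 of 200 nt or more. The median fold enrichment varied little over these classes, between 2.37 and 2.64. Tall peaks in coding exons of 300 nt or more gave the same order of edges at lower shares, with 310 of 1904 (16.3%) past the 3' edge and 23 (1.21%) past the 5' edge, and their overhang also had a median of 18 nt. What sets the overhang was not tested.

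The peaks were also counted against the exons that could have held one. Coding exons of canonical transcripts that met the same rule numbered 93862 in all protein-coding genes, of which 1865 (1.99%) held the midpoint of one of these peaks. In the genes with a peak there were 12405 such exons, and 15.0% of them held one. These genes were chosen for holding a peak, which raises this share and the shares by exon length below. The share rose with exon length, from 5.71% (4.72% to 6.84%) of exons under 80 nt to 26.0% (23.7% to 28.3%) of exons of 200 nt or more, while per 100 kb of exon the number varied less, between 95.3 and 127. Along the CDS the peaks were placed like the exons without a peak in the same genes: the median position was 0.448 (0.432 to 0.476) of the CDS against 0.441 (0.433 to 0.450), and the last of 5 equal parts held 13.9% against 14.5%. Peaks lay in an exon used by all coding transcripts of the gene that span it in 89.6% of 1471 cases (87.9% to 91.1%), against 88.7% of 7855 exons without a peak.

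Over whole peaks, intron bases included, UGUA, the motif of NUDT21, was as frequent, within counting error, as in coding exons of the same genes that no peak touched. In the exonic part of the peaks it was less frequent. It stood on the gene strand of 389 of 1924 peaks (20.2%, 18.4% to 22.1%), at 2.62 per kb, against 2.58 per kb in 10263 exons without a peak, a ratio of 1.01 (0.921 to 1.12). For the part of each peak inside its exon the ratio was 0.840 (0.747 to 0.943). Of 488 UGUA in the peaks, 319 (65.4%) lay inside the exon, 30 spanned its 3' edge as in the TPX2 sequence above, 90 lay in the intron after it and 49 before or across its 5' edge. A UGUA that spans the splice site with an intronic GU was present at 31 of 853 exons whose peak ran past the 3' edge (3.63%, 2.48% to 5.12%) and at 4.16% (3.78% to 4.57%) of 10233 exons without a peak.

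Base composition bears on such counts, so UGUA was set beside the 11 other orders of its 4 bases. Inside the exon its ratio was sixth of these 12 words, and the others lay between 0.792 and 0.899. The opposite strand of the whole peaks held 3.15 UGUA per kb and that of exons without a peak 3.86, so the gene strand had 0.831 of the opposite strand's density in the peaks and 0.670 in those exons. By Score the exonic ratio was 0.752 (0.571 to 0.972) at 4 steps or fewer, 0.840 (0.693 to 1.01) at 5 to 8, 0.867 (0.720 to 1.04) at 9 to 16 and 1.05 (0.587 to 1.73) at 17 or more steps. These intervals overlap, and the last class rests on 15 UGUA in 64 peaks.

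Purine-rich sequence was more frequent inside the exons under taller peaks. GAAGAA was present at 2.27 per kb of the exonic part of the peaks against 1.88 per kb in exons without a peak, a ratio of 1.21 (1.07 to 1.36); over the whole peak, intron included, the ratio was 0.982 (0.874 to 1.102). The exonic ratio was 0.608 (0.420 to 0.852) at 4 steps or fewer, 1.17 (0.965 to 1.41) at 5 to 8, 1.45 (1.22 to 1.71) at 9 to 16 and 2.37 (1.51 to 3.53) at 17 or more steps. Counts behind the outer classes were 34 and 24 matches. Neighbouring classes overlapped in their intervals except between 4 steps or fewer and 5 to 8 steps. Purines made up 51.5%, 55.0%, 57.1% and 59.5% of the exonic bases in these 4 classes in turn, against 53.5% in exons without a peak, and adenine alone rose from 24.7% to 35.6%. Whether GAAGAA does more than follow base composition was not tested.

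Among all words of 4 bases, the 16 made of purines alone had exonic ratios between 1.11 and 1.32 (median 1.19), whereas the 16 of pyrimidines alone ranged from 0.664 to 1.28 (median 0.931). Words rich in C ranked beside them, CCCC at 1.28 and ACCC at 1.29 among the 5 highest. Of 63 purine-only words of 6 bases with at least 200 matches, 62 had an exonic ratio above 1, but 2 of them were among the 12 highest of 2768 words, where CGCCCC and CCCACC also stood, and GAAGAA ranked 462. Over the whole peak, words that span the exon edge had the highest ratios, since the peaks took in intron bases and the exons they were set against did not: AGGUAA was at 20.6 times its density in exons without a peak, AAGGUA at 9.18, CAGGUA at 9.07 and GGUGAG at 6.69. These words were picked after their values were seen, and each holds GGU, as an exon ending in G gives with the GU of the intron, seen in the YBX1 junction above. A GU began the intron in 98.4% of the 853 exons with a peak past the 3' edge, against 99.3% of the 10233 exons without a peak.

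**Figure D3:**
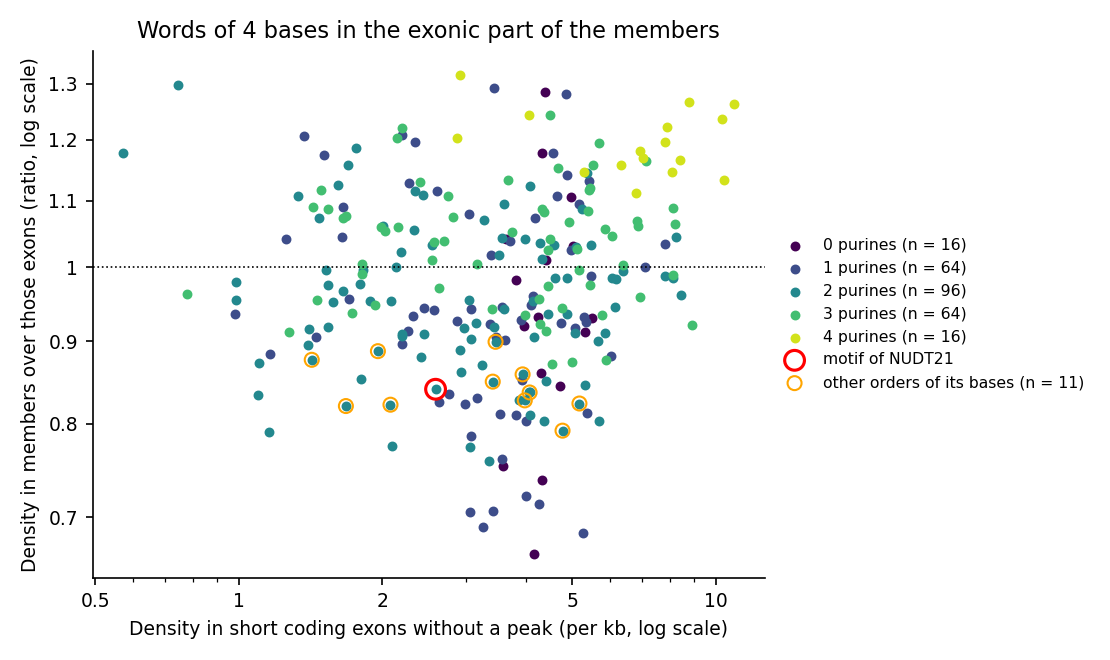
Ratio of the density of each word of 4 bases in the exonic part of the peaks to its density in short coding exons of the same genes without a peak (vertical axis, log scale), against the latter density (per kb, horizontal axis, log scale). Points are words coloured by their number of purines; the 16 purine-only words all lie above 1, and the motif of NUDT21 lies among the other orders of its bases, below 1.

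Some genes held several peaks. Of 1000 genes, 644 had 1 peak in a short coding exon and 356 (35.6%, 32.6% to 38.7%) had more, and those 356 held 1280 of the peaks (66.5%). At least 10 peaks were found in 17 genes. A neighbouring coding exon of the same transcript also held such a peak for 504 of the 1906 peaks in a canonical CDS (26.4%, 24.5% to 28.5%). The share to be met without clustering was not counted, so 26.4% is not read as clustering. The genes were also hit elsewhere: 38.8% had a peak in 3'UTR sequence outside any CDS, 37.8% one in a coding exon of 300 nt or more, 18.5% one in both CDS and 3'UTR, and 387 none of these. The 3'UTR share was alike in genes with a peak in a long coding exon (38.6%) or in both CDS and 3'UTR (39.5%). A long-exon peak was present in 21.4% of the latter genes, and a CDS and 3'UTR peak in 14.8% of the former. No share over all genes was counted.

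UBR4 and HUWE1, very large ubiquitin ligases, had the most peaks, 28 and 26. MDN1, a giant ATPase of ribosome assembly, had 20 and TPR, a nuclear pore basket protein, 19. In UBR4 25 of the 92 short coding exons of the canonical transcript that met the rule held a midpoint, with fold enrichment from 1.61 to 3.46, and 27 of the 28 were tall. HUWE1 peaks ranged from 1.72 to 3.61, MDN1 peaks from 1.61 to 3.20, and TPR peaks from 2.37 to 4.18. Past the 3' edge ran 14 of the UBR4, 13 of the HUWE1, 9 of the MDN1 and 9 of the TPR peaks, and past the 5' edge 2, 0, 2 and 0. UGUA was present in 5 UBR4, 5 HUWE1, 3 MDN1 and 0 TPR peaks.

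**Figure D4:**
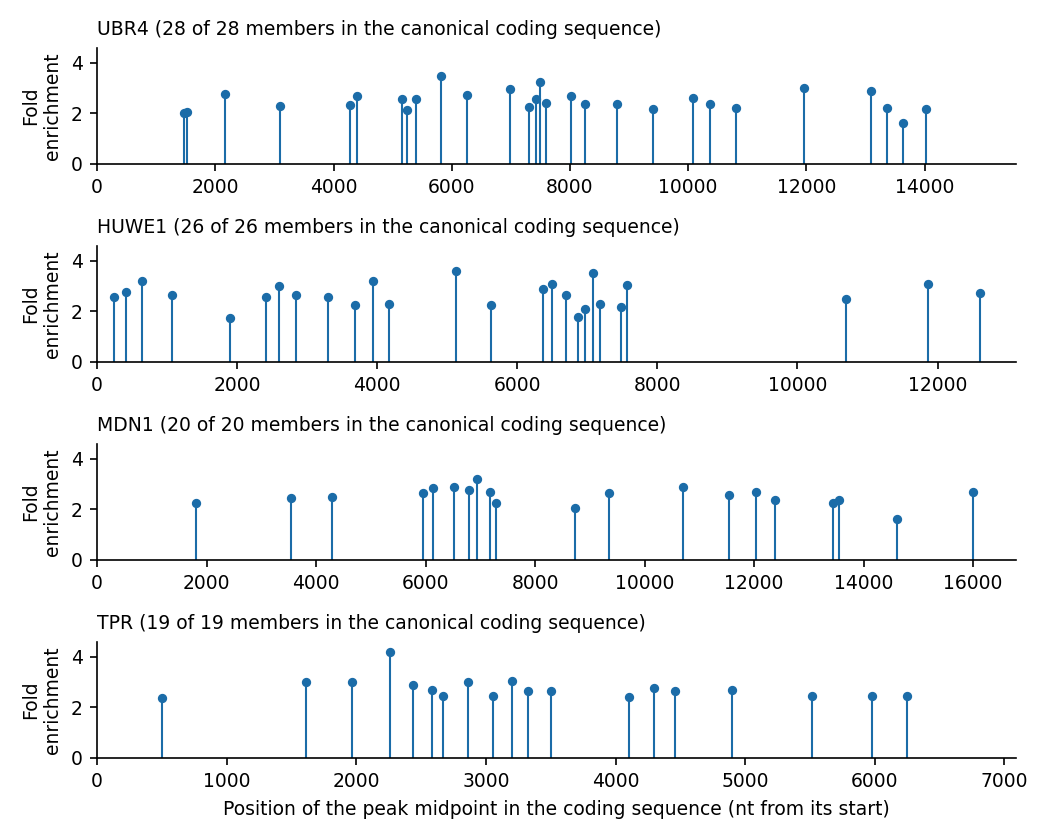
Fold enrichment (vertical axis, linear from 0) of each peak in short coding exons of UBR4, HUWE1, MDN1 and TPR by the position of its midpoint in the canonical coding sequence (nt from its start, horizontal axis, to the end of the CDS). Stems are single peaks, 28, 26, 20 and 19 in turn; they spread over most of each CDS, and HUWE1 has 3 peaks past nt 7572.

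The next genes by number were PRKDC with 16 peaks, SPTBN1 with 14, PRRC2C, RNF213 and PIEZO1 with 13 each, and KIF5B with 12, as many as PCM1. PRKDC is the catalytic subunit of the DNA-dependent protein kinase, SPTBN1 a spectrin of the membrane skeleton, PIEZO1 a mechanosensitive ion channel and KIF5B a kinesin motor. SPTBN1 had a peak in 14 of 26 short coding exons and KIF5B in 12 of 24, a larger share of exons than UBR4. In KIF5B 11 of the 12 peaks ran past the 3' edge, and fold enrichment ranged from 2.77 to 4.31 with a median of 3.28. Since neither RNA abundance nor the input was measured here, more binding and more RNA of a gene cannot be told apart.

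Functional groups were described by the number of genes with a peak out of those with a short coding exon, beside 992 of 14150 protein-coding genes, 7.01%. SR-related proteins, a list that leaves out the classical SR factors, had a peak in 12 of 19 genes (63.2%, 38.4% to 83.7%). Not every gene of the list encodes a protein with arginine and serine repeats: SRPK1 is a kinase of SR proteins. SRRM1 had 7 peaks, THRAP3 and SRPK1 had 3 each, and the list held a summed 28, of which 27 were tall. Components of the U2 snRNP and tri-snRNP had one in 8 of 21 genes, led by 9 peaks in SNRNP200, a spliceosomal RNA helicase, and 3 in SF3A1 and 2 in DDX46. The hnRNPs, which package nuclear RNA, had one in 6 of 18, with 3 in HNRNPUL2 and 2 each in HNRNPC and HNRNPDL. None of the 5 classical SR factor genes with a short coding exon had a peak in it (0%, upper limit 52.2%).

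Cleavage and polyadenylation factors, the group of NUDT21 itself, had a peak in a short coding exon in 8 of 17 genes (47.1%, 22.98% to 72.2%), 10 peaks in all. The NUDT21 gene had 1 (chr16:56451050-56451160, coding exon 1 of 7) at a fold enrichment of 2.90 and 12 steps, running 37 nt past the 3' edge and holding 1 UGUA. Its partner CPSF6 had 1 inside an exon at 2.72, and CPSF7 had 0. CPSF2 and RBBP6 had 2 each, and CPSF1 1. Acidic histone chaperones and nuclear acidic proteins had one in 7 of 11 genes (63.6%, 30.8% to 89.1%), with 7 in SUPT16H, a FACT subunit, 4 in SUPT6H and 3 in ANP32B. Replication factors had one in 9 of 22 genes (40.9%), with 8 in TOP2A, a DNA topoisomerase, 4 in RFC1 and 2 in MCM3.

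Among translation genes, initiation factors had a peak in 6 of 26 genes (23.1%, 8.97% to 43.6%), and 18 of their 25 peaks lay in EIF3A and EIF5B, 9 in each, followed by 3 in EIF2S2. Elongation and release factors had one in 3 of 12 genes (ABCE1, GFM1 and GSPT1, 1 peak each), and aminoacyl-tRNA synthetases in 3 of 15, with 3 peaks in EPRS1 and 2 in SARS1. Cytosolic ribosomal proteins had none in 41 genes (upper limit 8.60%) with 65 short coding exons, although 8 of the 41 had an exonic peak of some kind. Over all genes with a short coding exon, 3428 of 14150 had an exonic peak.

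In protein folding and turnover, 3 of 10 HSP90 and HSP70 genes had a peak (HSP90AB1 and HSPA4 with 3 each, HSP90B1 with 1), 2 of 7 chaperonin subunits (CCT6A and CCT8), 2 of 29 proteasome subunits (ADRM1 and PSMD3) and 2 of 27 ubiquitin E1 and E2 enzymes (CDC34 and UBE2N). The shares for proteasome and E2 genes, 6.90% and 7.41%, lay near the background. The UBE2N peak had a fold enrichment of 1.87 at 5 steps, and UBE2D3, which has no short coding exon by this rule, and UBE2J1 had 0. T-ALL drivers and T-cell transcription factors had one in 3 of 22 genes, LEF1 with 4 up to 3.61, and EZH2 and NOTCH1 with 1 each. Among 24 T-cell receptor signalling genes, 1 had one, PLCG1, at 2.46. HMGB2 had 1 peak at 2.69 and 31 steps. No peak in a short coding exon was found in MYC, HMGA1, CDK1, PCNA, BCL2, MYB, RUNX1, GATA3 or ETV6; for MYC and BCL2 no exon met the rule.

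**Figure D5:**
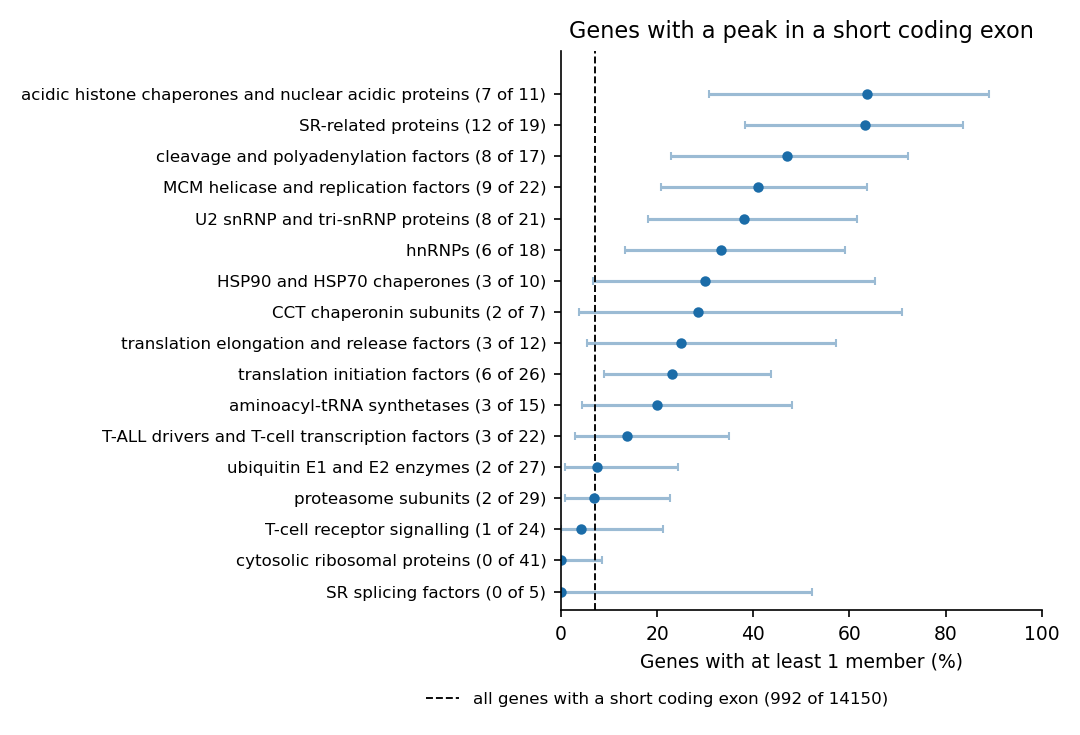
Genes with at least 1 peak in a short coding exon (%, horizontal axis) for 17 gene lists, each with its count out of the genes that have such an exon. Points are shares, bars exact 95% intervals for counting error, and the dashed line the share over all protein-coding genes, 7.01%; SR-related proteins and acidic chaperones lie highest, ribosomal proteins and SR factors at 0.

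Counted per exon, peak midpoints lay in 30.1% of the short coding exons of SR-related genes, 25.7% for the acidic chaperones, 17.5% for initiation factors, 11.8% for U2 and tri-snRNP genes, 11.1% for replication factors, 7.14% for cleavage and polyadenylation factors and 0.599% for T-cell receptor genes, against 1.99% over all genes. Neither share takes the level of the RNA into account, and its part in these differences was not tested.

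At the margin of the rule, the 33 peaks with an exon of 290 nt or more had a median fold enrichment of 2.37 and 7 steps, and the 18 CDS peaks in exons just outside it, less than 10 nt longer than the limit, had 2.35 and 8.5 steps. In the list as a whole the most common distance between the starts of neighbouring peaks was 476 nt; a partner at exactly this distance was present for 19.6% of all peaks and 5.61% (4.63% to 6.74%) of those in short coding exons.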

How the data were processed

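eCLIP was performed on J-Gamma1 cells with a NUDT21 antibody, with an input. The authors trimmed the reads of this 1 replicate with fastp, removed duplicates by molecular identifier, removed ribosomal RNA reads, mapped to hg38 and called peaks with MACS2 at a stated q-value of 0.05, which most deposited FDR values exceed; the aligner and the use of the input as control are not given in the sources used here. The deposited list gave each peak's fold enrichment (a ratio), p-value, FDR and Score, whose unit is not given; its depth is unknown.

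Peak midpoints were assigned with GENCODE 44 on hg38, with the stop codon counted as CDS; 0 of 20499 peaks passed a chromosome end. The exon of a peak was the longest of its gene at the midpoint. Comparison exons were canonical CDS segments that met the same rule in the same genes and touched no peak. Motifs were counted on the gene strand, overlaps included. Shares have exact Clopper-Pearson 95% intervals, medians order-statistic intervals and density ratios exact conditional intervals. Gene lists were counted without a set test. Python 3.11.15, pandas 2.3.3, scipy 1.17.1 and pysam 0.24.0 were used, and the code was tested on simulated peaks and sequences.

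The members and lists were chosen with earlier results of these data known. Named were the 10 peaks of highest fold enrichment, each FDR under 0.05, the 10 genes with most peaks, a fixed gene set, and the 3 genes with most peaks of each list. Alternatives changed the exon limit, transcripts, peak filter, merging, sequence window and comparison sequence.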

Additional observations from a re-analysis of the deposited data

How the results depend on the processing

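With 1 antibody library, neither leaving out a replicate nor a test under other settings could be had. No paired analysis was possible because the list came from 1 library. The depth is unknown, so the limits set by it could not be given. Of 121 values under other settings, 62 stayed within a set limit, 58 moved more and 1 reversed. The limit was the counting interval of the main value. Numbers of peaks and genes have no such interval, and a wider fixed factor was used for them. By that factor 1384 peaks at an exon limit of 200 nt still counted among the 62. The cause was not tested, other than where the setting itself takes in more or fewer peaks or bases. The main values were 1924 peaks, 9.39% of the list, 1000 genes, 45.4% of peaks inside the exon, a position of 0.669, UGUA in 20.2%, a purine share 0.557 percentage points above exons without a peak, 35.6% of genes with more than 1 peak and 26.4% with a neighbouring exon. An exon limit of 200 nt gave 6.75% of the list, 39.7% inside, position 0.689, purine difference 0.880, 31.6% of genes with more than 1 peak and 19.7% with a neighbour; a limit of 400 nt gave 10.5% of the list. With 1 transcript per gene there were 3676 peaks, 17.9% of the list, in 1723 genes, with 40.6% and 30.4% for genes with more than 1 peak and neighbours. Ignoring UTRs of transcripts subject to nonsense-mediated decay gave 12.6% of the list. Requiring 90% of a peak in CDS left 1037 peaks (5.06%) in 621 genes, with 92.3% tall, 83.3% inside, position 0.543, UGUA in 16.2%, GAAGAA ratio 1.13, purine difference 1.65, 29.0% of genes with more than 1 peak and 15.8% with a neighbour. Tall peaks alone gave 18.9% of such peaks in the list, fold enrichment 2.56, 49.4% inside, position 0.689, UGUA in 18.3%, purine difference 1.82, and 41.0% and 29.4% for genes and neighbours. A fold enrichment of at least 2 gave 19.8%, 2.57, 48.6% inside, purine difference 1.80, 40.6% and 29.7%. An FDR under 0.05 left 4 peaks in 4 genes, 21.1% of such peaks. Merging peaks within 100 nt gave 10.1% of the list. The central 48 nt gave UGUA in 10.9%, GAAGAA ratio 1.13 and purine difference 1.48. Extending peaks by 50 nt gave UGUA in 42.5%, UGUA ratio 1.18, GAAGAA ratio 0.853 and a reversed purine difference of -1.17. The part inside the exon gave UGUA in 14.4%, ratios of 0.840 for UGUA and 1.21 for GAAGAA and purine difference 1.75. Against the opposite strand of the peaks the ratios were 0.831 and 3.86, and the purine difference 8.15; the same strand comparison in exons without a peak gave 0.670, 4.13 and 7.04. Among list genes with an exonic peak of some kind, 44.1% had a peak in a short coding exon, against 23.1% of list genes with such an exon. Over all 14150 genes with a short coding exon, 3428 had an exonic peak of some kind and 992 one in a short coding exon. Chosen after seeing the data, the exonic part of tall peaks gave 0.851 for UGUA and 1.25 for GAAGAA, and peaks whose exon was the same in every transcript gave 48.1% of tall peaks past the 3' edge and 2.86% past the 5' edge.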

Other observations

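The 6 other genes with at least 10 peaks in short coding exons were named after their values were seen. SMC2, a condensin subunit, and NUP210, a nuclear pore membrane protein, had 11 each. SMC1A, a cohesin subunit, SMARCC1, a chromatin remodelling subunit, INTS1, an Integrator subunit, and SLIT1, an axon guidance ligand, had 10 each. The parts of the peaks' own exons that lay outside every peak held 2.40 UGUA and 1.94 GAAGAA per kb.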
